A study of Homo sapiens with 9 samples.

Results

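Collagen chain genes encode the alpha chains of the collagens, the main structural proteins of the extracellular matrix. They were taken as all genes whose symbol consists of COL, a number, the letter A and a number, and 44 of the 62700 genes of the count table matched. Their RNA was measured by bulk sequencing of polyA RNA from 293T cells, a transformed human embryonic kidney line, in 9 libraries. Cells of the first group received an empty vector, those of the second a plasmid for HA-CIC::DUX4, and those of the third a plasmid for HA-CIC(ex20)::NUTM1(ex6), called CIC::NUTM1 below. Both fusions carry an HA tag, and all 3 groups share the host line, the reverse transfection of 300000 cells and the harvest about 48 hours later. There were 3 libraries in each group, and their cultures were transfected on different days, according to the labels. CIC (capicua) is a DNA-binding repressor of transcription that is found joined to DUX4 or NUTM1 in sarcomas. The cells expressed the plasmids transiently, the labels do not give the share of cells that took one up, and RNA of CIC, NUTM1 and DUX4 was not analysed here. Whether each library carries its labelled plasmid was therefore not examined.

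Collagen alpha chains share a short repeat in which glycine recurs at a fixed spacing, and chains of one type wind around each other into a helix before they leave the cell. Fibrillar collagens (types I, II, III, V and XI among them) assemble into the banded fibrils of skin, bone and cartilage, type V and XI chains regulating fibril width. Type IV chains form the sheet of basement membranes, type VI chains form beaded filaments, and fibril-associated collagens (types IX, XII, XIV and XIX) decorate the surface of fibrils. Several types are built from chains of different genes, so the chains present set which molecules a cell can make.

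The libraries held between 16970771 and 33655445 counts. Of the 44 genes, 40 passed the abundance filter and were tested among 17576 genes, and 4 (COL1A2, COL8A2, COL16A1 and COL22A1) were too low, with at most 64 counts in any library. Levels are CPM, read counts scaled to library size with factors from the trimmed mean of M values (TMM), and a gene was called where edgeR's quasi-likelihood test gave a Benjamini-Hochberg adjusted p under 0.05 over all genes tested. CIC::DUX4 replicate 1 stood apart from the other CIC::DUX4 libraries. THY1, a fibroblast marker, had 203 counts there against 0 and 2 in replicates 2 and 3, and COL1A2 had 64 counts against 6 and 7. ETV4, a known target of CIC, was at 232 CPM there against 165 and 182 CPM. It also differed between CIC::NUTM1 replicates 1 to 3, at 255, 156 and 211 CPM. The total of chains called with CIC::DUX4, and the counts by class and list that it moves, are therefore also given without this library. Markers of embryonic kidney cells summed to 1421 to 1620 CPM (1420.9 and 1619.6) in empty vector, 1425 to 1529 CPM under CIC::NUTM1 and 1348 to 1377 CPM under CIC::DUX4, whose libraries all lay below the others, and 7 of 8 were at 1 CPM or more on average in empty vector, the exception being PAX8 at 0 counts.

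Collagen chain genes rose more often than they fell with both fusions. With CIC::DUX4, 16 of the 40 tested chains were called higher than in empty vector and 1 lower, where 6.96% of all tested genes were higher and 1.27% lower. With CIC::NUTM1, 19 chains were higher and 2 lower, against 11.5% and 3.83% of all tested genes. The median log2 fold change of the tested chains was 0.25 under CIC::DUX4 and 0.58 under CIC::NUTM1, and that of all tested genes was -0.0015 and -0.00086. The comparisons share the empty vector libraries. In bulk RNA, more cells that express a chain and more RNA per cell cannot be told apart.

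The filter bears on these counts. Of the 40 tested chains, 28 had enough counts in empty vector alone, that is in each of its 3 libraries. The other 12 passed only with counts of the fusion libraries, which favours chains that are high there. Among the 28, 8 were higher and 1 lower with CIC::DUX4, and 11 were higher and 2 lower with CIC::NUTM1, with median log2 fold changes of 0.11 and 0.14 (0.145). The share of all genes under this condition is not given here. The nearest base is a refit of the 14571 genes with at least 10 counts in every library. There 774 genes were higher and 187 lower with CIC::DUX4, and 1565 and 649 with CIC::NUTM1. By the libraries themselves, 19 tested chains had every CIC::DUX4 library above every empty vector library, and 3 had every one below (14.8% and 11.0% of all genes). The same held for 21 and 3 chains with CIC::NUTM1 (18.2% and 12.9% of all genes). Without CIC::DUX4 replicate 1, 10 chains were called higher with CIC::DUX4, the calls of COL5A1, COL7A1, COL8A1, COL15A1, COL17A1 and COL19A1 being lost. Calls over all genes fell as well, with 805 of 18103 higher in that refit against 1224 of 17576 with all libraries.

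Called chains were spread over the classes. Both fusions gave a call for the same direction at 16 chains: 15 higher (COL5A1, COL5A3, COL6A5, COL6A6, COL8A1, COL10A1, COL11A1, COL11A2, COL12A1, COL14A1, COL15A1, COL17A1, COL19A1, COL26A1 and COL28A1) and 1 lower (COL2A1). COL7A1 was called higher with CIC::DUX4 alone. COL4A4, COL5A2, COL6A1 and COL6A2 were called higher, and COL1A1 lower, with CIC::NUTM1 alone. No chain was called in opposite directions, and 18 tested chains had no call. The comparisons use the same empty vector libraries, and the share of all tested genes called alike with both fusions is not given here. Of the chains called higher, 8 with each fusion passed the filter only with the fusion libraries. These were COL5A3, COL6A5, COL6A6, COL8A1, COL10A1, COL15A1, COL17A1 and COL28A1.

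**Figure D1:**
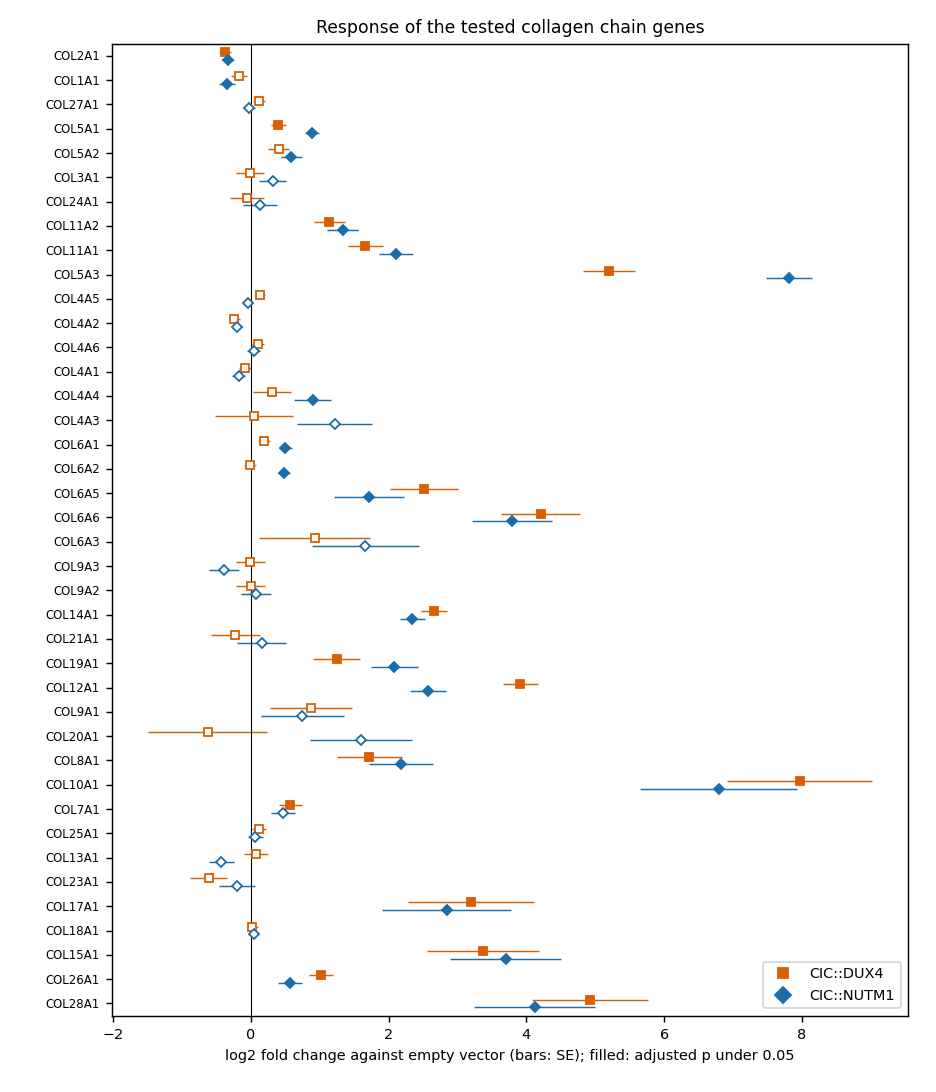
Log2 fold change of the 40 tested collagen chain genes against empty vector (x axis) with the SE as bars, squares for CIC::DUX4 and diamonds for CIC::NUTM1, filled where the edgeR adjusted p was under 0.05. Genes are ordered by class as in the plot of levels. COL5A3 lies at 5.20 under CIC::DUX4 and 7.81 under CIC::NUTM1, and the point of COL10A1 is a fitted value against 0 counts and no measure of size.

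Per kilobase of exon, the collagen RNA of these cells was mostly that of a few chains. In empty vector, COL6A1, an obligatory chain of type VI collagen, led with 36.0 ± 2.16 CPM per kb (SD, n = 3). COL18A1, a basement membrane collagen whose end fragment is endostatin, followed with 18.8 ± 1.52, COL6A2 with 9.78 ± 0.187 and COL2A1, the cartilage fibril chain, with 9.14 ± 0.419 CPM per kb. COL4A5 (6.24 ± 0.155) and COL4A2 (5.39 ± 0.583) came next. The libraries of each of the first 5 chains did not overlap with those of the next chain in the order, and from COL4A2 through COL26A1 (4.63 ± 0.540) to COL4A6 (3.96 ± 0.179 CPM per kb) each chain overlapped with its next neighbour. With the length of the longest transcript in place of all exons, COL6A1 and COL18A1 kept the first ranks, COL4A2 took rank 3, and COL26A1 and COL4A6 fell to ranks 11 and 9.

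These 8 chains made up 77.7% ± 0.612 of the summed collagen CPM per kb in empty vector, 73.4% ± 1.58 under CIC::DUX4 and 73.9% ± 1.78 under CIC::NUTM1 (SD, n = 3). The sum of CPM over all 44 genes was 920 to 993 in the empty vector libraries (919.8 at the lowest), 1017 to 1096 under CIC::DUX4 and 1094 to 1231 under CIC::NUTM1. The share of fibril-associated chains was 3.73% ± 0.128 in empty vector, 7.07% ± 1.40 under CIC::DUX4 and 5.42% ± 0.119 under CIC::NUTM1. That of basement membrane chains was 15.6% ± 0.669, 13.6% ± 1.03 and 11.9% ± 1.43 in the same order. The number of chains with at least 10 counts was 29 to 34 in empty vector libraries, 36 to 41 under CIC::DUX4 and 38 to 41 under CIC::NUTM1, and the deepest library was one of empty vector.

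**Figure D2:**
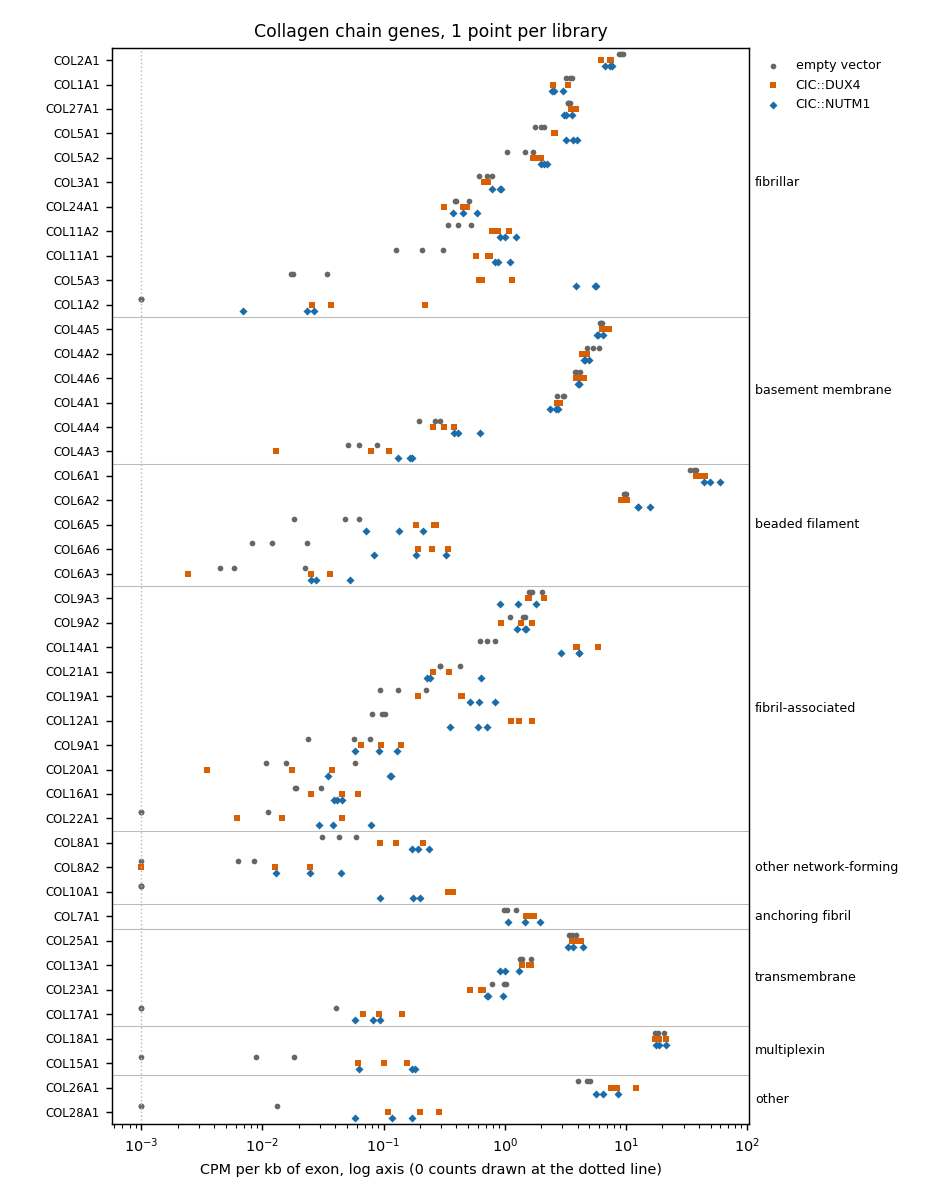
CPM per kb of exon (x axis, log scale) of the 44 collagen chain genes, grouped by class and ordered by the empty vector mean within a class, with 1 point per library (circles empty vector, squares CIC::DUX4, diamonds CIC::NUTM1). Libraries with 0 counts are drawn at the dotted line. The 3 groups of COL5A3 lie far apart, and those of COL6A1 and COL18A1 lie close together.

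Among the 11 fibrillar chains, of which 10 were tested, 4 rose and 1 fell with CIC::DUX4 (6.96% and 1.27% of all tested genes), and 5 rose and 2 fell with CIC::NUTM1 (11.5% and 3.83%). Of the 9 with enough counts in empty vector alone, which leaves out COL5A3, 3 rose and 1 fell with CIC::DUX4 and 4 rose and 2 fell with CIC::NUTM1. Without CIC::DUX4 replicate 1, 3 of the 10 rose and 1 fell with CIC::DUX4. Of these the largest fitted changes with both fusions were those of COL5A3 (ENSG00000080573), the third chain of type V collagen, on the minus strand of chromosome 19 (chr19:9959561-10010471, GRCh38). The 250 bases before its start in RefSeq (GRCh38.p14, chr19:10010505-10010754, minus strand, printed 5′ to 3′) are shown for this reason, and capitals mark a GGGCGG box, the sequence bound by SP1.
COL5A3 promoter: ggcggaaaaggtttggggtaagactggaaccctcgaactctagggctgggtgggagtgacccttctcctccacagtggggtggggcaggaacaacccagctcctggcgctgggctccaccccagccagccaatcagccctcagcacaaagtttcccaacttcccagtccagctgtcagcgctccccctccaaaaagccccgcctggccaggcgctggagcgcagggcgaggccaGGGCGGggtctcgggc
COL5A3 was at 0.229, 0.117 and 0.120 CPM in empty vector replicates 1 to 3, at 7.71, 4.17 and 4.35 CPM under CIC::DUX4 and at 38.0, 25.9 and 37.2 CPM under CIC::NUTM1. The 3 groups did not overlap, and every CIC::NUTM1 library lay above every CIC::DUX4 library. Pooled counts were 11 in empty vector, 363 under CIC::DUX4 and 2030 under CIC::NUTM1 (pooled fold 39.4, exact 95% counting interval 21.8 to 79.7, and 228, interval 127 to 457). The log2 fold change was 5.20 ± 0.38 (SE) with CIC::DUX4 (edgeR adjusted p = 4.79e-09) and 7.81 ± 0.33 with CIC::NUTM1 (edgeR adjusted p = 1.33e-12). Directly compared, the fusions differed by 2.61 ± 0.21 (edgeR adjusted p = 3.64e-08). An antisense gene shares 270 bases of exon with COL5A3, and whether strand was used in counting is not given in the sources used here.

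The other type V chains changed less. COL5A1 (ENSG00000130635), which is in nearly all type V molecules, was at 23.6, 22.3 and 19.9 CPM in empty vector, 29.4, 28.8 and 28.5 CPM under CIC::DUX4 and 41.3, 36.0 and 44.2 CPM under CIC::NUTM1. Again the 3 groups were ordered without overlap. It rose by 0.40 ± 0.10 (log2, SE; edgeR adjusted p = 0.0128) with CIC::DUX4 and by 0.89 ± 0.10 (edgeR adjusted p = 4.51e-07) with CIC::NUTM1, and was 0.48 ± 0.10 higher under CIC::NUTM1 than under CIC::DUX4 (edgeR adjusted p = 0.00305). Its call with CIC::DUX4 was lost without CIC::DUX4 replicate 1 or empty vector replicate 3. COL5A2 (ENSG00000204262) was at 10.4 ± 2.51 CPM (SD, n = 3) in empty vector and 13.8 ± 1.14 with CIC::DUX4 (edgeR adjusted p = 0.135), and it rose to 15.7 ± 0.976 with CIC::NUTM1 (log2 fold change 0.59 ± 0.16, edgeR adjusted p = 0.0101), a call lost without empty vector replicate 3. Per kilobase of exon, COL5A3 stood at 0.0116 ± 0.00394 of the level of COL5A1 in empty vector, 0.309 ± 0.109 under CIC::DUX4 and 1.37 ± 0.166 under CIC::NUTM1. By this measure it exceeded COL5A1 in all 3 CIC::NUTM1 libraries (ratios 1.52, 1.19 and 1.40). That order rests on the length used, since in CPM without length COL5A1 was the higher chain in each CIC::NUTM1 library. COL5A3 ranked 34 of the 44 chains per kilobase of exon in empty vector, 22 under CIC::DUX4 and 7 under CIC::NUTM1. With the longest transcript as length, its ranks were 35, 22 and 11, where COL5A1 ranked 13 under CIC::NUTM1.

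Both minor fibril chains of type XI collagen also rose. COL11A1 (ENSG00000060718) was at 1.14, 1.87 and 2.81 CPM in empty vector, 6.90, 6.56 and 5.29 CPM under CIC::DUX4 and 10.1, 8.07 and 7.51 CPM under CIC::NUTM1. All fusion libraries lay above all empty vector libraries. Its log2 fold change was 1.66 ± 0.25 (SE) with CIC::DUX4 (edgeR adjusted p = 3.92e-05) and 2.11 ± 0.25 with CIC::NUTM1 (edgeR adjusted p = 6.51e-07), and CIC::NUTM1 minus CIC::DUX4 had no call (0.44 ± 0.23, edgeR adjusted p = 0.317). COL11A2 (ENSG00000204248) went from 2.87 ± 0.638 CPM (SD, n = 3) to 6.19 ± 1.03 under CIC::DUX4 and 7.12 ± 1.10 under CIC::NUTM1, log2 fold changes of 1.14 ± 0.23 and 1.33 ± 0.22 (edgeR adjusted p = 0.00104 and 9.33e-05).

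The 2 fibrillar chains that fell were abundant ones. COL2A1 (ENSG00000139219), the only chain of type II collagen, was at 60.9, 58.1 and 63.7 CPM in empty vector, 49.4, 41.4 and 50.4 CPM under CIC::DUX4 and 51.4, 49.0 and 44.8 CPM under CIC::NUTM1. Every fusion library lay below every empty vector library. It fell by 0.37 ± 0.09 (log2, SE; edgeR adjusted p = 0.00693) with CIC::DUX4 and by 0.33 ± 0.09 (edgeR adjusted p = 0.0107) with CIC::NUTM1. Both calls were lost without empty vector replicate 3, and that with CIC::DUX4 also without CIC::DUX4 replicate 2. COL1A1 (ENSG00000108821), the major chain of type I collagen, was at 33.5 ± 2.03 CPM (SD, n = 3) in empty vector, 29.9 ± 4.63 with CIC::DUX4 (edgeR adjusted p = 0.463) and 26.3 ± 2.94 with CIC::NUTM1, where it fell by 0.34 ± 0.12 (edgeR adjusted p = 0.0434). That call was lost in 4 of 6 refits without 1 library (empty vector replicate 1 or 3, CIC::NUTM1 replicate 1 or 3).

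COL1A2, the partner of COL1A1 in type I collagen, was almost silent. It had 0 counts in all 3 empty vector libraries, 64, 6 and 7 under CIC::DUX4 and 5, 2 and 5 under CIC::NUTM1. Against a floor of 3 counts over the empty vector group (0.0392 CPM), the pooled level was at least 30.7-fold higher with CIC::DUX4, at least 8.76-fold higher without CIC::DUX4 replicate 1, and at least 4.93-fold higher with CIC::NUTM1. These folds take the pooled fusion counts (77, 13 and 12) as observed and leave out their counting error. The other fibrillar chains, COL3A1, COL24A1 and COL27A1, had no call, with log2 fold changes between -0.06 and 0.32.

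**Figure D3:**
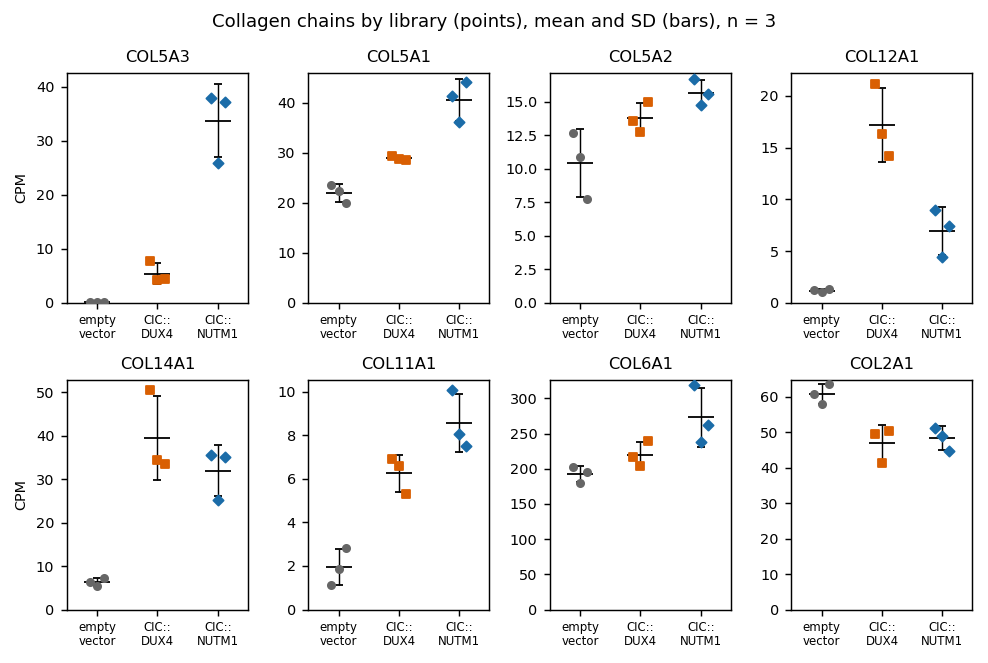
CPM (y axis, from 0) of 8 collagen chain genes in the 3 empty vector (circles), 3 CIC::DUX4 (squares) and 3 CIC::NUTM1 libraries (diamonds), with the mean and SD as bars. COL5A3 and COL5A1 are highest with CIC::NUTM1, COL12A1 is highest with CIC::DUX4, and COL2A1 is lower in all 6 fusion libraries than in the 3 of empty vector.

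Of the 10 fibril-associated chains, 3 rose with each fusion (6.96% and 11.5% of all tested genes), 5 were tested without a call and 2 were untested. All 3 had enough counts in empty vector alone, and 2 rose with CIC::DUX4 without its replicate 1. Within this class, COL12A1 changed most with CIC::DUX4. COL12A1 (ENSG00000111799), a long chain that bridges fibrils and other matrix proteins in tendon and around muscle, is on the minus strand of chromosome 6 (chr6:75084326-75206051, GRCh38). The 250 bases before its RefSeq start (GRCh38.p14, chr6:75206054-75206303, minus strand, 5′ to 3′) are printed because no other chain was called higher under CIC::DUX4 when the fusions were compared. Capitals mark a GGGCGG box read on the other strand.
COL12A1 promoter: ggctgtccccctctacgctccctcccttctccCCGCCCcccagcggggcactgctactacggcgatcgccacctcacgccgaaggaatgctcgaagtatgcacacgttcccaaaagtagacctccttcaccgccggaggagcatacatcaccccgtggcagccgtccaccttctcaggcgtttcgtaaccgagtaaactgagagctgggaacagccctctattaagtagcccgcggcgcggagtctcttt
COL12A1 was at 1.20, 0.996 and 1.28 CPM in empty vector, 21.2, 16.3 and 14.2 CPM under CIC::DUX4 and 8.94, 4.44 and 7.46 CPM under CIC::NUTM1. The groups did not overlap, and the order of the fusions was the reverse of that for COL5A3. The log2 fold change was 3.91 ± 0.25 (SE) with CIC::DUX4 (edgeR adjusted p = 1.20e-10) and 2.58 ± 0.26 with CIC::NUTM1 (edgeR adjusted p = 7.96e-08). CIC::NUTM1 stood 1.33 below CIC::DUX4 on the log2 scale (-1.33 ± 0.21, edgeR adjusted p = 0.000158).

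COL14A1 (ENSG00000187955), a chain of related structure found beside COL12A1 in dense connective tissue, was at 6.24, 5.45 and 7.21 CPM in empty vector, 50.6, 34.4 and 33.4 CPM under CIC::DUX4 and 35.5, 25.2 and 35.2 CPM under CIC::NUTM1. The fusion groups overlapped with each other and lay well above empty vector. It rose by 2.66 ± 0.18 (log2, SE; edgeR adjusted p = 3.33e-08) and 2.34 ± 0.18 (edgeR adjusted p = 9.01e-08), with no call between the fusions (edgeR adjusted p = 0.332). COL19A1 (ENSG00000082293) was at 1.28 ± 0.579 CPM (SD, n = 3) in empty vector, 3.04 ± 1.21 under CIC::DUX4 and 5.55 ± 1.33 under CIC::NUTM1. Its rise with CIC::NUTM1 was 2.08 ± 0.34 (edgeR adjusted p = 5.90e-05). With CIC::DUX4 it was 1.25 ± 0.34 (edgeR adjusted p = 0.0213), with overlapping libraries and the call lost in 4 of 6 refits without 1 library (empty vector replicate 1 or 2, CIC::DUX4 replicate 1 or 2). The type IX chains COL9A1, COL9A2 and COL9A3 had no call in any comparison, and COL9A2 was at 5.62 ± 0.818, 5.59 ± 1.58 and 5.95 ± 0.574 CPM in empty vector, CIC::DUX4 and CIC::NUTM1.

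The chains of type VI collagen differed in level and in response. COL6A1 (ENSG00000142156) was at 203, 180 and 195 CPM (179.9 in replicate 2) in empty vector, 217, 204 and 239 CPM under CIC::DUX4 and 319, 237 and 263 CPM under CIC::NUTM1. All CIC::NUTM1 libraries lay above empty vector, while CIC::NUTM1 replicate 2 overlapped with CIC::DUX4 replicate 3. COL6A1 rose by 0.50 ± 0.09 (log2, SE; edgeR adjusted p = 0.000548) with CIC::NUTM1 and had no call with CIC::DUX4 (0.19 ± 0.09, edgeR adjusted p = 0.247). The difference between the fusions, 0.31 ± 0.09, passed narrowly (edgeR adjusted p = 0.0455). That call was lost under DESeq2 size factors, library totals, upper quartile factors, a minimum of 10 counts in every library and a fit of only these groups, and in 4 of 6 refits without 1 library (replicates 1 and 3 of CIC::NUTM1, 1 and 2 of CIC::DUX4).

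COL6A2 (ENSG00000142173), which pairs with COL6A1 in every type VI molecule and lies beside it on chromosome 21, was at 52.9, 51.6 and 53.6 CPM in empty vector, 53.0, 49.3 and 54.6 CPM under CIC::DUX4 and 85.4, 67.9 and 67.9 CPM under CIC::NUTM1. Only CIC::NUTM1 stood apart. COL6A2 rose by 0.48 ± 0.09 with CIC::NUTM1 (log2, SE; edgeR adjusted p = 0.00026) and was 0.49 ± 0.09 higher than with CIC::DUX4 (edgeR adjusted p = 0.000612). The per-kilobase ratio of COL6A1 to COL6A2 was 3.68 ± 0.174 in empty vector, 4.24 ± 0.150 under CIC::DUX4 and 3.73 ± 0.190 under CIC::NUTM1. COL6A3, the chain that completes the usual molecule, had between 1 and 20 counts in every library and no call, against 924 or more for COL6A2.

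The alternative chains of type VI collagen started near the floor. Of the 5 type VI chains tested, 2 had enough counts in empty vector alone. COL6A5 and COL6A6 were not among them and passed only with the fusion libraries, which favours chains that are high there. COL6A6 (ENSG00000206384) was at 0.229, 0.117 and 0.0801 CPM in empty vector, 2.44, 3.31 and 1.88 CPM under CIC::DUX4 and 1.80, 0.804 and 3.21 CPM under CIC::NUTM1. The fusion libraries overlapped with each other and lay above all of empty vector (pooled fold 19.7, exact 95% counting interval 10.5 to 41.9, and 13.9, interval 7.30 to 29.8; edgeR adjusted p = 8.59e-06 and 2.55e-05). COL6A5 (ENSG00000172752) went from 0.412 ± 0.216 CPM (SD, n = 3) to 2.28 ± 0.452 with CIC::DUX4 (edgeR adjusted p = 0.00102) and 1.34 ± 0.677 with CIC::NUTM1 (edgeR adjusted p = 0.0218), the latter call lost without empty vector replicate 2 or CIC::NUTM1 replicate 1.

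For basement membrane collagen, none of the 6 type IV chains was called with CIC::DUX4 by edgeR or by DESeq2, where 1 (COL4A2) had an unadjusted p under 0.05, and 1 (COL4A4) was called higher with CIC::NUTM1. Of all tested genes, 6.96% were higher and 1.27% lower with CIC::DUX4, and 11.5% and 3.83% with CIC::NUTM1, so that counts of 0 and 1 among 6 are near the share of all genes. COL4A1 and COL4A2, which form the molecule found in nearly all basement membranes, start back to back on chromosome 13. The 126 bases between their RefSeq starts (GRCh38.p14, chr13:110307158-110307283, plus strand, reading toward COL4A2) are printed because 1 stretch lies before both genes, and capitals mark a GGGCGG box.
COL4A1 to COL4A2 interval: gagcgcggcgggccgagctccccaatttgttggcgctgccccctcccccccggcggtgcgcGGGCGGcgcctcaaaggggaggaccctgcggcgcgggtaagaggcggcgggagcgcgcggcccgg
COL4A1 (ENSG00000187498) was at 43.4 ± 2.87 CPM (SD, n = 3) in empty vector, 41.0 ± 1.30 under CIC::DUX4 and 38.4 ± 2.89 under CIC::NUTM1. COL4A2 (ENSG00000134871) was at 104 ± 11.2, 88.2 ± 3.89 and 90.7 ± 4.89 CPM. Log2 fold changes were -0.09 and -0.18 for COL4A1 (edgeR adjusted p = 0.68 and 0.212) and -0.24 and -0.20 for COL4A2 (edgeR adjusted p = 0.0602 and 0.094). COL4A2 was called lower with CIC::DUX4 under upper quartile factors, without a filter, in a fit of only those groups and without empty vector replicate 1. With CIC::NUTM1 it was called lower with library totals or upper quartile factors, without a filter and without empty vector replicate 1.

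The per-kilobase ratio of COL4A1 to COL4A2 was 0.547 ± 0.0295 in empty vector, 0.608 ± 0.0203 under CIC::DUX4 and 0.554 ± 0.0268 under CIC::NUTM1 (SD, n = 3). Every ratio in a CIC::DUX4 library (0.586 to 0.625) lay above every one in empty vector (0.513 to 0.565). The ratios were not tested, and neither chain was called with CIC::DUX4. Of single genes, 14.8% had every CIC::DUX4 library above every empty vector library and 11.0% every one below. COL4A5 and COL4A6, which also start back to back, on the X chromosome, had a ratio of 1.57 ± 0.0357, 1.62 ± 0.0860 and 1.48 ± 0.105. COL4A5 was at 74.0 ± 1.84, 81.2 ± 5.30 and 71.8 ± 4.50 CPM, with no call in any comparison. The third back-to-back pair, COL4A3 and COL4A4, mutated in Alport syndrome, was scarce. The ratio of COL4A4 to COL4A3 was 4.06 ± 1.76, 11.8 ± 15.2 and 3.02 ± 0.705 in the same order, with 29.4 in CIC::DUX4 replicate 3, where COL4A3 had 2 counts. COL4A4 (ENSG00000081052) was at 2.54 ± 0.514 CPM in empty vector, 3.18 ± 0.634 under CIC::DUX4 and 4.75 ± 1.33 under CIC::NUTM1, where it rose by 0.90 ± 0.27 (log2, SE; edgeR adjusted p = 0.0231). This call was lost without empty vector replicate 1 or 3 or CIC::NUTM1 replicate 3, and COL4A3, at 0.614 ± 0.170 CPM in empty vector and 1.42 ± 0.197 with CIC::NUTM1, had no call (edgeR adjusted p = 0.143).

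Of the 3 other network-forming chains, 2 were tested, and these 2 were called higher with each fusion (6.96% and 11.5% of all tested genes). Without CIC::DUX4 replicate 1, 1 was called higher with CIC::DUX4. Their levels in empty vector were very low, and 0 had enough counts there alone. They passed the filter only with the fusion libraries, which favours chains that are high there. COL10A1 (ENSG00000123500), the chain of hypertrophic cartilage, had 0 counts in all empty vector libraries and was at 1.30, 1.44 and 1.41 CPM under CIC::DUX4 and 0.360, 0.765 and 0.673 CPM under CIC::NUTM1. The fusion groups did not overlap, but a difference between them was not called (edgeR adjusted p = 0.244). Against 3 counts over the empty vector group it was at least 35.1-fold higher under CIC::DUX4 and at least 16-fold higher under CIC::NUTM1 (edgeR adjusted p = 8.84e-06 and 0.000117). These folds leave out the counting error of the fusion counts. COL8A1 (ENSG00000144810), a chain of the sheet under the corneal endothelium and of vessel walls, went from 0.418 ± 0.135 CPM (SD, n = 3) to 1.35 ± 0.567 under CIC::DUX4 and 1.88 ± 0.312 under CIC::NUTM1 (edgeR adjusted p = 0.0192 and 0.00141). The call with CIC::DUX4 was lost without empty vector replicate 2 or CIC::DUX4 replicate 1. COL8A2, its partner, was untested with at most 4 counts in a library.

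COL7A1 (ENSG00000114270), the anchoring fibril chain that ties epidermis to dermis, was at 12 ± 1.45 CPM (SD, n = 3) in empty vector, 17.9 ± 1.45 under CIC::DUX4 and 16.6 ± 5.01 under CIC::NUTM1. It rose by 0.58 ± 0.17 (log2, SE; edgeR adjusted p = 0.0329) with CIC::DUX4, a call lost in 4 of 6 refits without 1 library (empty vector replicate 2 or 3, CIC::DUX4 replicate 1 or 3). With CIC::NUTM1 the libraries ranged from 11.7 to 21.7 CPM, overlapped with empty vector and gave no call (edgeR adjusted p = 0.0662), and neither did the direct comparison (edgeR adjusted p = 0.807).

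Of the transmembrane chains, COL17A1 (ENSG00000065618), a hemidesmosome component of skin, was called higher with both fusions, from 5, 0 and 0 counts in empty vector to 17, 10 and 17 under CIC::DUX4 and 11, 15 and 8 under CIC::NUTM1. Pooled folds were 10.5 (exact 95% counting interval 4.18 to 34.0) and 8.39 (3.26 to 27.5), and the calls (edgeR adjusted p = 0.0284 and 0.04) were lost in 4 and 5 of 6 refits without 1 library. CIC::DUX4 replicates 1 and 3 and empty vector replicates 2 and 3 were those whose removal lost the first call, and any CIC::NUTM1 library or empty vector replicate 2 or 3 the second. COL17A1 passed the filter only with the fusion libraries, which favours chains that are high there. COL13A1, COL23A1 and COL25A1 had no call, with log2 fold changes between -0.61 and 0.12.

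The multiplexins, basement membrane collagens with interrupted helices, went apart in level. COL18A1 (ENSG00000182871) was at 160 ± 12.9, 163 ± 17.3 and 165 ± 16.8 CPM (160.2 in empty vector), with log2 fold changes near 0 whose sign turned with the scaling or a left-out library, 0.03 and 0.04 (edgeR adjusted p = 0.918 and 0.817). It shares 1401 bases of exon with SLC19A1 on the other strand. COL15A1 and COL19A1 overlap opposite-strand genes by 137 and 70 bases. COL15A1 (ENSG00000204291) had 0, 2 and 3 counts in empty vector, 27, 14 and 7 under CIC::DUX4 and 20, 11 and 22 under CIC::NUTM1 (pooled folds 11.5, exact 95% counting interval 4.59 to 36.9, and 13.1, interval 5.26 to 41.9; edgeR adjusted p = 0.00693 and 0.00166). The call with CIC::DUX4 was lost without CIC::DUX4 replicate 1. COL15A1 passed the filter only with the fusion libraries, which favours chains that are high there.

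COL26A1 (ENSG00000160963), a secreted collagen-domain protein, was at 12.7, 15.1 and 16 CPM in empty vector, 38.2, 24.0 and 26.8 CPM under CIC::DUX4 and 27.2, 17.9 and 20.6 CPM under CIC::NUTM1. All fusion libraries lay above empty vector. It rose by 1.02 ± 0.17 (log2, SE; edgeR adjusted p = 0.000754) with CIC::DUX4 and by 0.57 ± 0.18 (edgeR adjusted p = 0.0371) with CIC::NUTM1, the latter call lost in 5 of 6 refits without 1 library (all but that without CIC::NUTM1 replicate 2). COL28A1 (ENSG00000215018) had 0, 3 and 0 counts in empty vector, 35, 15 and 32 under CIC::DUX4 and 19, 10 and 15 under CIC::NUTM1 (pooled folds 32.7, exact 95% counting interval 10.8 to 162, and 18.1, interval 5.80 to 91.1; edgeR adjusted p = 0.000195 and 0.00133). It passed the filter only with the fusion libraries, which favours chains that are high there.

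The fusions themselves were then compared at the same genes. CIC::NUTM1 was higher than CIC::DUX4 at 4 chains (COL5A1, COL5A3, COL6A1 and COL6A2) and lower at 1 (COL12A1), where 4.97% and 1.64% of all tested genes were called. The libraries of the fusions did not overlap at 9 chains higher with CIC::NUTM1 and 3 lower (12.6% and 9.36% of all genes), and the median log2 difference of the tested chains was 0.04. Except for COL6A1, these calls held without each library and under each other scaling, filter, tool or fit in which the gene was tested. With a minimum log2 change of 1 as well, 1 higher (COL5A3) and 1 lower (COL12A1) were left. For the chains called with 1 fusion alone, a difference between the fusions was called at COL6A1 and COL6A2 and was not detected at COL1A1, COL4A4, COL5A2 and COL7A1 (edgeR adjusted p = 0.472, 0.236, 0.593 and 0.807).

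Levels of the called chains differed between libraries of a fusion. CIC::DUX4 replicate 1 held the highest level of 10 of the 16 chains called higher, and CIC::NUTM1 replicate 1 that of 14 of 19. These libraries also had the highest ETV4 of their groups, 232 CPM and 255 CPM, against 156 and 211 CPM in CIC::NUTM1 replicates 2 and 3. The part of this difference between libraries in the calls was not tested beyond the refits without each library.

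Markers of fibroblasts, endothelium and muscle were low in all groups and higher in the fusion libraries. The 6 fibroblast markers summed to 3.83 to 4.80 CPM in empty vector, 6.52 to 16.7 CPM under CIC::DUX4 and 9.30 to 11.1 CPM under CIC::NUTM1, and FAP was at 0 counts in empty vector. Without THY1, the highest CIC::DUX4 sum was 8.96 CPM. The 4 endothelial markers summed to 0.401 to 0.908 CPM, 1.68 to 7.36 CPM and 3.52 to 6.30 CPM, and the 4 muscle markers to 1.48 to 2.00, 2.54 to 3.12 and 2.49 to 2.98 CPM in the same order, with MYOG at 0 in every library. The cartilage markers did not move in this way, at 11.9 to 16.3, 11.1 to 14.6 and 13.0 to 16.2 CPM, with HAPLN1 at 0 in empty vector. Leukocyte markers summed to 1.20 to 3.21 CPM in empty vector, 1.82 to 2.56 CPM under CIC::DUX4, overlapping with it, and 3.94 to 5.94 CPM under CIC::NUTM1, all above it, with CD3E at 0 in empty vector and CIC::NUTM1. The part of these markers in the collagen results was not tested.

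Promoters of the collagen genes were searched for the 4 octamers known as CIC sites (TGAATGAA, TGAATGGA, TCAATGAA and TCAATGGA, both strands). RefSeq windows from 250 bases before to 50 after the start were at hand for 32 of the 44 genes, 44 windows in all, some of them overlapping. None held an octamer, against 3.77% of all 35116 windows of the same length, and 0 of 44 windows is near that share. The called chains COL1A1, COL2A1, COL5A2, COL6A1, COL6A5, COL8A1 and COL14A1 had no window and were not searched. In the 250 bases before the start, GGGCGG was in 24 of the 44 windows (42.6% of all windows) and TATAAA in 8 (10.7%). CCGGAAG, a core bound by ETS factors, was in 0 (8.5%). TGANTCA, a pattern wider than the AP-1 site, which has C or G at N, was in 1 (6.6%). That window, of COL10A1, held TGAATCA and TGATTCA, with A or T at N. A match is only a match of letters, and sites outside these windows were not examined.

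Genes that make and process collagen were read from a list of enzymes and chaperones. Of its 35 genes for synthesis, secretion and crosslinking, all tested, 3 rose under CIC::DUX4 (1, PCOLCE2, without CIC::DUX4 replicate 1) and 7 under CIC::NUTM1, where 6.96% and 11.5% of all tested genes rose, and 0 fell with either by edgeR or DESeq2 (4 were lower at an unadjusted edgeR p under 0.05 with each), with list medians of -0.01 and -0.0085 (log2). P3H2, a prolyl 3-hydroxylase acting on basement membrane collagen, went from 5.35 ± 0.925 CPM (SD, n = 3) to 7.21 ± 1.48 with CIC::DUX4 (edgeR adjusted p = 0.226) and rose to 17.2 ± 3.72 with CIC::NUTM1 (log2 fold change 1.66 ± 0.19, edgeR adjusted p = 3.35e-07). MIA3, which loads procollagen into transport carriers, was at 83.7 ± 5.33 CPM in empty vector, 95 ± 4.61 under CIC::DUX4 and 157 ± 14.1 under CIC::NUTM1, where it rose by 0.91 ± 0.08 (edgeR adjusted p = 1.74e-09). In the direct comparison P3H2 and MIA3 were higher in CIC::NUTM1 (edgeR adjusted p = 6.96e-05 and 2.63e-07), as was the galactosyltransferase COLGALT2 (edgeR adjusted p = 0.00927, a call lost without CIC::NUTM1 replicate 3 or CIC::DUX4 replicate 3).

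P4HA1, the catalytic subunit of prolyl 4-hydroxylase, rose with both fusions, from 38.4 ± 3.95 CPM (SD, n = 3) to 50.2 ± 6.96 with CIC::DUX4 (edgeR adjusted p = 0.0104) and 56.3 ± 1.07 with CIC::NUTM1 (edgeR adjusted p = 0.00018). The first of these calls was lost without empty vector replicate 1 or 2 or CIC::DUX4 replicate 1. The other genes called higher were PCOLCE2 and LOXL1 with CIC::DUX4 and COLGALT1, COLGALT2, P3H1 and TLL2 with CIC::NUTM1. LOXL1 (edgeR adjusted p = 0.0496) lost its call in 5 of 6 refits without 1 library and in 6 other settings, TLL2 in 5 of 6 and COLGALT1 and COLGALT2 in 4 of 6 refits each. SERPINH1, the collagen chaperone, was at 123 ± 6.82, 114 ± 9.59 and 109 ± 5.40 CPM in empty vector, CIC::DUX4 and CIC::NUTM1 (edgeR adjusted p = 0.439 and 0.0996).

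Of 10 collagen receptor genes, 8 were tested, and 2 rose and 1 fell with CIC::DUX4 (6.96% and 1.27% of all tested genes) while 3 rose and 2 fell with CIC::NUTM1 (11.5% and 3.83%). Of these 8 receptors, 6 had enough counts in empty vector alone. ITGA11 was not among the 6 and passed only with the fusion libraries, which favours genes that are high there. Of the 6, 1 rose and 1 fell with CIC::DUX4, and 2 rose and 2 fell with CIC::NUTM1. Without CIC::DUX4 replicate 1 the CIC::DUX4 counts of the 8 were again 2 and 1. ITGA11, the integrin alpha chain that binds fibrillar collagen on fibroblasts, was at 0.229, 0.556 and 0.721 CPM in empty vector, 11.9, 8.0 and 6.29 CPM under CIC::DUX4 and 3.54, 2.03 and 3.83 CPM under CIC::NUTM1. The 3 groups did not overlap, in the order seen for COL12A1. Its log2 fold change was 4.04 ± 0.35 (SE) under CIC::DUX4 and 2.54 ± 0.37 under CIC::NUTM1 (edgeR adjusted p = 1.08e-08 and 1.30e-05), and the fusions differed by -1.50 ± 0.29 (CIC::NUTM1 minus CIC::DUX4, edgeR adjusted p = 0.00138). ITGB1, the partner of all collagen-binding integrin alpha chains, was at 164 ± 7.50 CPM in empty vector, 162 ± 11.5 under CIC::DUX4 and 221 ± 11.3 under CIC::NUTM1, where it rose by 0.42 ± 0.07 (edgeR adjusted p = 3.05e-05).

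The discoidin domain receptors, kinases that bind collagen, moved in opposite directions. DDR2 rose from 26.4 ± 3.22 CPM (SD, n = 3) to 56.3 ± 11.4 under CIC::DUX4 (a log2 change of 1.10 ± 0.15, edgeR adjusted p = 0.000106) and 38.7 ± 6.91 with CIC::NUTM1 (0.55 ± 0.15, edgeR adjusted p = 0.0195). DDR1 fell from 47.2 ± 2.65 to 33.7 ± 1.66 CPM under CIC::DUX4 and 35.7 ± 2.93 CPM under CIC::NUTM1 (edgeR adjusted p = 0.000651 and 0.00285). The call of DDR2 with CIC::NUTM1 was lost in 4 of 6 refits without 1 library (empty vector replicate 2 or 3, CIC::NUTM1 replicate 1 or 3). Directly compared, DDR2 was lower with CIC::NUTM1 than with CIC::DUX4 (edgeR adjusted p = 0.0341), a call lost in 3 of 6 refits without 1 library. ITGA2 also fell with CIC::NUTM1 (-0.53 ± 0.17, edgeR adjusted p = 0.0403), a call lost in 5 of 6 such refits.

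**Figure D4:**
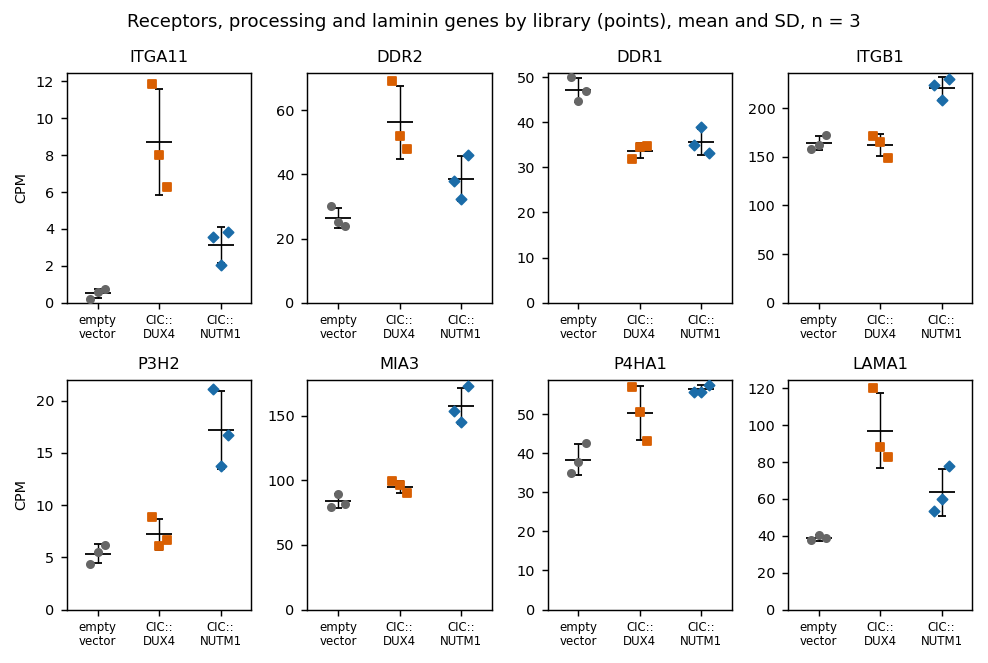
CPM (y axis, from 0) of collagen receptor, processing and laminin genes in the 3 empty vector (circles), 3 CIC::DUX4 (squares) and 3 CIC::NUTM1 libraries (diamonds), with the mean and SD as bars. On average, ITGA11, DDR2 and LAMA1 are highest with CIC::DUX4, whereas ITGB1, P3H2 and MIA3 are highest with CIC::NUTM1, and DDR1 is lower in all 6 fusion libraries. Between the fusions, the calls of DDR2 and LAMA1 did not hold in each refit.

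Among the basement membrane partners of type IV collagen (laminin chains, nidogens, perlecan and agrin), 14 of 15 genes were tested. LAMA1, the laminin alpha chain of embryonic basement membranes, rose from 38.9 ± 1.45 CPM (SD, n = 3) to 97.1 ± 20.4 under CIC::DUX4 (a log2 change of 1.32 ± 0.16, edgeR adjusted p = 0.000147) and 63.7 ± 12.7 with CIC::NUTM1 (0.71 ± 0.16, edgeR adjusted p = 0.00886), and it was the 1 gene called with CIC::DUX4. Its call held without CIC::DUX4 replicate 1, and 1 of 14 is near the 6.96% of all tested genes. Directly compared, LAMA1 was lower with CIC::NUTM1 than with CIC::DUX4 (edgeR adjusted p = 0.0352). That call was lost in 2 of 6 refits without 1 library, in a fit of only these groups and with a replicate block. With CIC::NUTM1, 4 genes rose (LAMA1, LAMA2, LAMA4 and LAMA5) and 1 fell (LAMA3), where 11.5% and 3.83% of all tested genes did. The log2 changes of LAMA2, LAMA4, LAMA5 and LAMA3 were 0.70, 0.35, 0.25 and -0.40, and LAMA5 alone of these kept its call without each library. LAMB1, the beta chain of the common laminins, was at 103 ± 6.69, 102 ± 2.86 and 107 ± 4.74 CPM in empty vector, CIC::DUX4 and CIC::NUTM1 and had no call.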

How the data were processed

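PolyA RNA of 293T cells was sequenced in 9 libraries. The authors deposited whole-number counts per Ensembl gene and a table of log2 CPM for 15811 symbols. STAR 2.7.10b, R 4.2.2, edgeR 3.40.2 and GRCh38 are named in the submitters' processing notes, and the counting program, annotation and use of strand are not given in the sources used here. Directional libraries were built, per the labels' protocols. The deposited log2 CPM values held 40 of the 44 collagen chain genes and served only for an alternative.

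Groups came from the labels. The test on counts was that of edgeR 4.0.16, run in R 4.3.3 (filterByExpr, TMM, robust quasi-likelihood fit, 1 mean per group, all 9 libraries, Benjamini-Hochberg over 17576 genes). Standard errors were taken as the size of the log2 fold change over the root of its F statistic. Symbols matched 62622 of 62700 IDs. Exon lengths, positions and overlaps are from GENCODE 29, promoter sequences from RefSeq (GRCh38.p14). Protein sequences were not used here. Folds against 0 counts use a floor of 3 counts over the empty vector group. They take the fusion counts as observed and leave out the counting error of those counts. Counting intervals (95%, exact) cover counting error only. Replicates were transfected on separate days, so p-values measure the spread between those cultures. Deviations of same-numbered libraries correlated at -0.031 to 0.075, under the 0.1 set for pairing, so they were not treated as pairs.

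The named chains are those called in any comparison, the 8 highest per kilobase in empty vector and the partners of called chains, and the called genes with the largest changes in each companion list. Members, classes and lists were chosen with earlier results of these data known. Alternatives were 3 other scalings, 2 other filters, DESeq2 1.42.0, limma 3.58.1, a fit of only the groups compared, a replicate block, a minimum log2 change of 1, each library left out and the longest transcript as length; 4 further promoter motifs were chosen after seeing the data. Figures were drawn with matplotlib 3.10.9.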

Additional observations from a re-analysis of the deposited data

Results flagged for a closer look

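For 5 collagen chains the effects of the fusions, each against the same empty vector libraries, differed in the direct edgeR test, as the report gives. On the log2 scale, CIC::NUTM1 minus CIC::DUX4 was 2.61 for COL5A3, 0.48 for COL5A1, 0.49 for COL6A2, 0.31 for COL6A1 and -1.33 for COL12A1. The value for COL6A1 rests on the scaling and on single libraries.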

How the results depend on the processing

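No called chain or companion gene changed direction in any setting run. Among the named chains, signs turned only in comparisons where the chain had no call. With library totals these were COL18A1 (-0.0027) and COL4A6 (-0.00058) for CIC::NUTM1 and COL18A1 (-0.0299), COL2A1 (-0.0065) and COL4A2 (-0.0031) between the fusions, and with upper quartile factors COL18A1 (-0.00029 and -0.015). COL4A3 turned for CIC::DUX4 under limma (-0.28). With each library left out in turn, COL18A1 ranged from -0.0593 to 0.0912 for CIC::DUX4, -0.0439 to 0.105 for CIC::NUTM1 and -0.0667 to 0.0969 between the fusions. For CIC::DUX4, COL4A3 ranged from -0.441 to 0.489 and COL6A2 from -0.0443 to 0.0282. Between the fusions, COL2A1 ranged from -0.0466 to 0.0871, COL4A2 from -0.00505 to 0.0729 and COL7A1 from -0.338 to 0.0711. With TMM replaced by DESeq2 size factors, library totals or upper quartile factors, the number called higher was again 16 for CIC::DUX4 and 19 for CIC::NUTM1. A minimum of 10 counts in every library left 28 chains tested, of which 8 were higher in the CIC::DUX4 comparison, 11 in that of CIC::NUTM1 and 2 in the direct one. Chains lower with CIC::DUX4 numbered 2 with upper quartile factors, without a filter and in a fit of only those groups, and chains lower with CIC::NUTM1 than CIC::DUX4 numbered 2 without a filter. A minimum log2 change of 1 left 0 lower with either fusion and 1 higher between the fusions. Leaving out 1 library gave 10 to 16 higher and 0 to 2 lower with CIC::DUX4, 15 to 18 higher and 0 to 4 lower with CIC::NUTM1, and 3 to 4 higher and 1 to 2 lower between the fusions. The number lower with CIC::DUX4 was 0 without empty vector replicate 3 or CIC::DUX4 replicate 2 and 2 without empty vector replicate 1. The number lower with CIC::NUTM1 was 0 without empty vector replicate 3, 1 without CIC::NUTM1 replicate 1 or 3 and 4 without CIC::NUTM1 replicate 2. The cause of these changes was not tested, beyond the fewer genes or samples in the refit. Leaving aside the minimum log2 change, 10 of 17 calls with CIC::DUX4, 14 of 21 with CIC::NUTM1 and 4 of 5 between the fusions held in each setting where the gene was tested.

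With the replicate number as a block, the CIC::DUX4 comparison had 16 chains higher and 1 lower, that of CIC::NUTM1 19 and 2, the direct one 4 and 1, and no call of a named chain changed, while the sign of COL4A3, without a call, turned for CIC::DUX4 (-0.016). Among companion genes, LOXL1 (CIC::DUX4) and LAMA1 (between the fusions) lost their calls under the block. Correlations of same-numbered deviations were all under 0.1, and 7 of 9 libraries correlated best with a library of their own number, a hint from the data and not the design. Depth limits chains with few counts in empty vector, such as COL10A1 and COL28A1, to lower bounds or wide intervals.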
